A study of Mus musculus with 6 samples.

Results

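A set of 44 genes of the germline, of meiosis and of the piRNA pathway was examined in undifferentiated mouse embryonic stem cells (mESCs) with and without *Alkbh1*. It was chosen with earlier results of these data known. The set was given as a list of gene symbols, and each gene was looked up by symbol, older alias or gene identifier in a table of 33142 probe sets, groups of short oligonucleotides whose brightness reflects the abundance of a transcript. A probe set was found for 36 of the 44 genes, out of 15375 genes with a named probe set, and where a gene had more than 1, the one with the highest mean stands for it. By role, the set holds 21 meiotic genes, 15 genes of the piRNA pathway and of germ granules, and 8 determinants of germ cells or other germ cell genes. *Sycp2*, *Spo11*, *Brdt*, *Tdrd1*, *Tdrd6*, *Piwil4*, *Nanos2* and *Nanos3* had no named probe set in the table.

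The study compared WT mESCs with *Alkbh1*-/- mESCs, both of C57BL/6 background, with 3 microarrays per genotype. All cells were at passage 8 and at day 0 of differentiation, were kept in medium with leukemia inhibitory factor and received no treatment. Both genotypes came from littermate embryos of heterozygous parents and were grown on irradiated fibroblasts, so that RNA of feeder cells can be part of each sample. The labels number the arrays within a genotype and do not say whether they came from separate cultures or from more than 1 line. Each value printed here is a mean that the authors made over arrays, either over all 6 or over those of 1 genotype, and single arrays were not analysed here. The means therefore carry no error and no test, and a difference between them is given as a description. WT and *Alkbh1*-/- mESCs also differed in Y-linked transcripts, given below. No difference between the genotypes described here can be told apart from one between the lines.

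Germ cells are set apart from the soma early in the mouse embryo, and a small group of RNA-binding proteins and transcription factors, among them DAZL, DND1 and the NANOS proteins, directs their fate. In meiosis, cohesins and axis proteins organize each chromosome, the synaptonemal complex holds the paired homologs together, and recombinases repair programmed breaks into crossovers. In the piRNA pathway, PIWI proteins carry small RNAs that silence transposons, with helicases and Tudor proteins assembled in germ granules near mitochondria. Many of these genes are kept silent in the soma by DNA methylation of CpG-rich promoters and by a Polycomb complex that binds E-box and E2F motifs, and some of them are transcribed at low level in mESCs.

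Promoter sequences are described first, because the E-box and E2F motifs through which germline genes are known to be repressed can be read in them. RefSeq promoter windows of 300 bases (250 before and 50 after the transcription start, build GRCm38.p6) were available for 37 of the 44 genes, and 0 of the 37 lay on chromosome X or Y. The E-box CACGTG occurred in 13 of the 37 windows (35.1%), against 7.24% of the windows of all 27025 genes and 9.79% of those of the 12156 genes with a named probe set. The E2F motif, searched as TTCCCGC on both strands (GCGGGAA on the other), occurred in 11 of the 37 windows (29.7%), against 4.66% of all genes and 7.95% of genes with a named probe set. Either motif was present in 19 windows and both in 5, those of *Hormad1*, *Stag3*, *Ddx4*, *Sycp3* and *Slc25a31*. The longer palindrome TCACGTGA, which contains the E-box, was found in 0 of the 37 windows and in 1.01% of all. These are matches of letters and were not tested as binding sites.

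The CpG content of the germline windows exceeded that of all genes but not that of genes with a named probe set. The median ratio of observed to expected CpG was 0.69 in the germline windows, against 0.39 over all genes. Over genes with a named probe set it was 0.73, so that the germline median lay close to that of the genes of the array. At the lower end, the *Nanos2* window held 0 CpG dinucleotides. At the upper end, *Tdrd5* and *Smc1b* had ratios of 1.11 and 1.08.

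**Figure D1:**
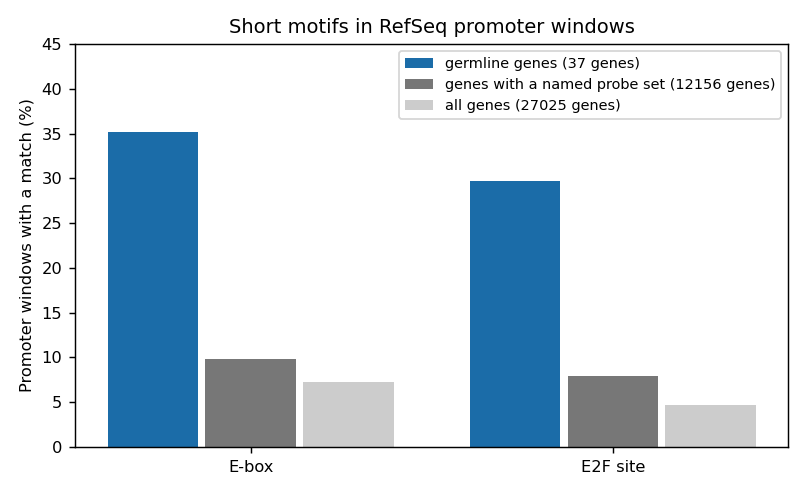
Share of promoter windows (%, vertical axis) with at least 1 match to the E-box or the E2F motif, for the 37 germline genes, the 12156 genes with a named probe set and all 27025 genes with a RefSeq window. Bars are shares of genes, and the first window listed stands for a gene with several; the germline genes stand at 35.1% and 29.7%, above both other groups.

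The 250 bases before the start are printed for 5 genes on which the values below turn: *Hormad1*, *Smc1b*, *Stag3* and *Dazl*, whose means were higher in *Alkbh1*-/- mESCs, and *Ddx4*, whose mean was lower. Capitals mark the E-box and the E2F motif, and all sequences read 5′ to 3′ on the strand of the gene (RefSeq, GRCm38.p6).

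*Hormad1*, chr3:95559427-95559676, plus strand: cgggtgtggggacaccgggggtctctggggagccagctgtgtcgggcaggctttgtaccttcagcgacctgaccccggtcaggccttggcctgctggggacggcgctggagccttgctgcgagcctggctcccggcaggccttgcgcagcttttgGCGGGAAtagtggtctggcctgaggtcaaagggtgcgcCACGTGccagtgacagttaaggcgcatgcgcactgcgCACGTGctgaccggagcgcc
*Smc1b*, chr15:85131958-85132207, minus strand: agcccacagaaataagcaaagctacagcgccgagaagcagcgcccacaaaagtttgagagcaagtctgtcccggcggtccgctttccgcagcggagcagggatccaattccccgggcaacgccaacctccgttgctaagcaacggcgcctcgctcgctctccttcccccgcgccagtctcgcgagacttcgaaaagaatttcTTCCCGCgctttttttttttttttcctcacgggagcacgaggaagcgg
*Stag3*, chr5:138280259-138280508, plus strand: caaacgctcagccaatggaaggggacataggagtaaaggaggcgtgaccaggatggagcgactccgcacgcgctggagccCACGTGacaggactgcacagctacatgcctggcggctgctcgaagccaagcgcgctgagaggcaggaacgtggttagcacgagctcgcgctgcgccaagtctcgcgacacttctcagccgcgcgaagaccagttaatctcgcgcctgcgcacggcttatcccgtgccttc
*Dazl*, chr17:50293621-50293870, minus strand: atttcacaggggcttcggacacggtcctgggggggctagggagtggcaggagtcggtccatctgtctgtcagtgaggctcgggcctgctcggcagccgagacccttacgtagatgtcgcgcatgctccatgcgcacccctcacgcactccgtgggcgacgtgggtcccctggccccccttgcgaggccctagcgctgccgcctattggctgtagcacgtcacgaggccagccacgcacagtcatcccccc
*Ddx4*, chr13:112652311-112652560, minus strand: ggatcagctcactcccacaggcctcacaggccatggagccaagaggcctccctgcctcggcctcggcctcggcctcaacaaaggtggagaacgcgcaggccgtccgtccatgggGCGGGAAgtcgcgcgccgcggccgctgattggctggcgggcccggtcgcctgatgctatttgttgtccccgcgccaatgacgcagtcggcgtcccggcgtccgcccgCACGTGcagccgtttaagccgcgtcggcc

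The *Hormad1* promoter carried 2 E-boxes, which begin 57 and 20 bases before the start, and an E2F motif at 95 bases before it. In *Stag3*, the E-box begins 170 bases before the start and an E2F motif begins 3 bases before it and runs past the printed stretch. The *Smc1b* promoter carried the E2F motif alone, and the printed *Dazl* stretch neither motif.

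Across the mESCs of both genotypes, 22 of the 36 measured genes reached the median log2 mean of the whole table (6.31), or 61.1%, close to the share of all 15375 genes by the same rule (62.0%). The other 14 are called dim here. The means ran from 3.70 for *Msh4*, which acts in crossover formation, to 11.74 for *Syce2*, a protein of the central element of the synaptonemal complex. Brightness depends on the probes as well as on the transcript, so these levels do not order the genes. The normalized values carry no call of presence, and a dim probe set can belong to a transcript that is absent.

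Of the meiotic genes, 10 of 18 measured were at or above the median (55.6%, against 62.0% of all genes). Besides *Syce2*, these included *Tex15*, which is needed for the repair of meiotic breaks, at 9.16 and *Sycp3*, of the axial element, at 8.29. *Rec8*, the kleisin subunit of meiotic cohesin, was at 6.73 and *Sycp1*, the transverse filament, at 6.36, both close to the median. Dim were *Stra8*, which the germ line induces on entry into meiosis, at 6.12, *Msh5*, the partner of *Msh4*, at 5.08, and *Mei1*, which is required for break formation, at 3.78. *Syce2*, *Tex15*, *Sycp3*, *Rec8*, *Sycp1*, *Stra8*, *Msh5* and *Mei1* have a mean over all arrays alone, so nothing is said here of their difference between the genotypes.

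Among the piRNA and germ granule genes, 6 of 12 measured were at or above the median, against the same 62.0%. *Rnf17*, a Tudor protein of germ granules, stood at 10.45 at its brightest probe set, and its other 3 probe sets at 8.05, 7.70 and 6.81. *Tex19.1*, which is expressed in pluripotent cells and germ cells and restrains retrotransposons, was at 10.41. *Stk31*, a Tudor protein with a kinase domain, was at 7.12. Dim were *Tdrd7* at 5.48, *Mov10l1*, the helicase at the start of piRNA processing, at 5.41, *Asz1*, a germ granule protein of mitochondria, at 4.51 and *Tdrd9*, a helicase with a Tudor domain, at 4.12. For *Rnf17*, *Tex19.1*, *Stk31*, *Tdrd7*, *Mov10l1*, *Asz1* and *Tdrd9*, means per genotype were not analysed here.

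Of the germ cell determinants and other germ cell genes, 6 of 6 measured were at or above the median, a small number beside the 62.0% of all genes. *Tex14*, which keeps the bridges between dividing germ cells open, had a mean over all arrays of 8.54. *Prdm1*, which represses the somatic program in primordial germ cells, was at 7.21, and *Dnd1*, an RNA-binding protein they need to survive, at 7.07. These 3 genes too have a mean over all arrays alone.

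**Figure D2:**
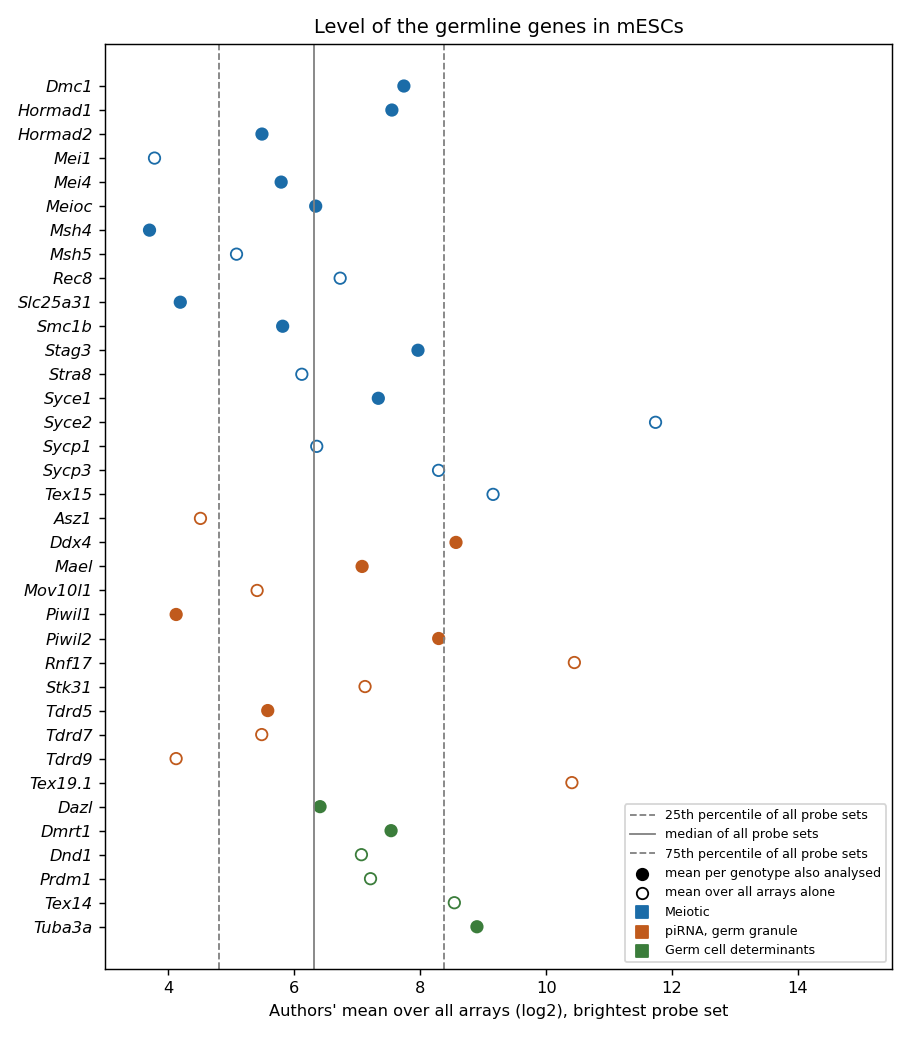
Mean over all 6 arrays on the log2 scale (horizontal axis) at the brightest probe set of each of the 36 measured germline genes, in alphabetical order within a role. Filled points also have a mean per genotype, and vertical lines give the quartiles of all 33142 probe sets; 22 genes lie at or right of the median line at 6.31, and positions of different genes are not comparable as amounts of RNA.

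Means per genotype were available for 18 of the 36 measured genes, against 14.9% of all 15375 genes. They come from a class comparison that lists only probe sets passing a filter and a nominal p of 0.05 set by the authors, so each of the 18 had to differ in the authors' own test, and nothing is read from their number. The smallest difference in that table is 0.37 on the log2 scale. What can be described is the direction and size of the difference, read against the 2284 genes whose brightest probe set is listed in the same table. In bulk RNA, fewer cells that express a gene and less of its RNA per cell cannot be told apart.

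Of the 18 genes, 13 (72.2%) had a higher mean in *Alkbh1*-/- than in WT mESCs, against 47.5% of all 2284 listed genes. A difference of over 1.5-fold upward was found for 12 of the 18 (66.7%), against 31.9% of listed genes, and a difference of over 1.5-fold downward for 5 (27.8%), against 33.2%. The median log2 difference (*Alkbh1*-/- minus WT) was 0.75 over the 18 germline genes and -0.44 over the 2284; since differences close to 0 are not listed, the latter falls on one or the other side of a gap (it is 0.42 over all 4232 listed entries). Among the 11 genes at or above the median level, 8 were higher and 3 lower, and among the 7 dim ones 5 were higher and 2 lower. With differences centred on the median of all entries (0.42), 6 of the 18 were over 1.5-fold higher, against 273 of the 2284 genes. After this shift every listed lower gene, 5 of the 18 and 1198 of the 2284, is over 1.5-fold lower. That outcome was fixed, because no listed difference is smaller than 0.37. Without *Msh4*, *Slc25a31* and *Piwil1*, whose means lay under the 25th percentile of all probe sets (4.80 on the log2 scale) in both genotypes, 10 genes were higher and 5 lower, against 47.5% of 2141 listed genes higher; this limit was set after the values were seen. The shares are descriptions of listed genes and were not tested. Because the set was chosen with earlier results of these data known, they are not those of an independent set.

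**Figure D3:**
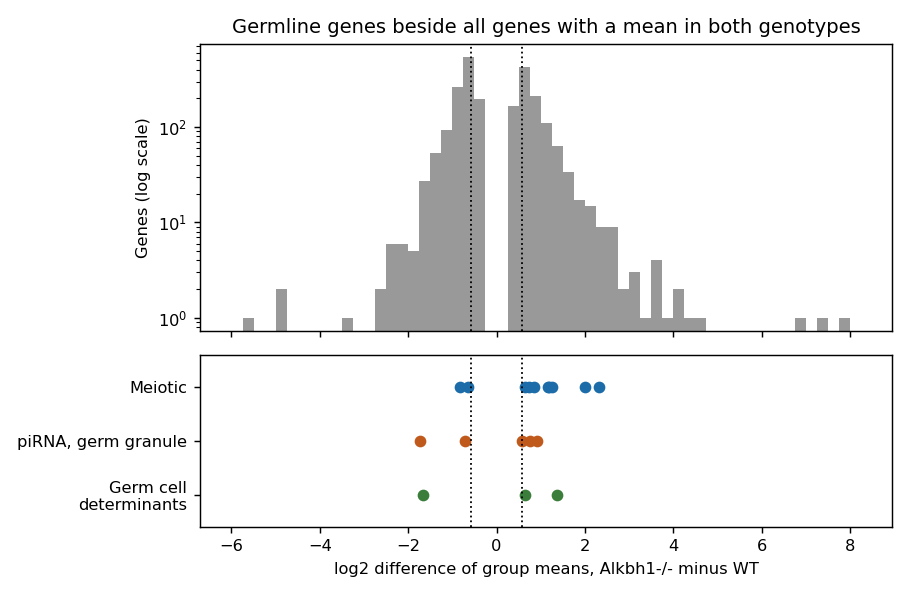
Log2 difference of the group means (horizontal axis, *Alkbh1*-/- minus WT) for the 2284 genes with a mean in both genotypes (top, number of genes per bin on a log axis) and for the 18 germline genes by role (bottom). Dotted lines mark 1.5-fold; small differences are missing because the table does not list them, and 12 of the 18 points lie right of the upper line.

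Of the meiotic genes, 8 of 10 were higher in *Alkbh1*-/- mESCs, against 47.5% of all listed genes. All 8 were over 1.5-fold higher, against 31.9% of listed genes, and the median log2 difference of the 10 was 1.01. Without *Msh4* and *Slc25a31*, whose means lay under the 25th percentile in both genotypes, 6 of 8 were higher and 2 lower. Centred on the median of all entries, 5 of the 8 higher genes stayed over 1.5-fold, and *Dmc1*, *Slc25a31* and *Msh4* did not. *Smc1b*, the meiosis-specific SMC subunit of cohesin, had a geometric mean intensity, the authors' linear scale, of 25.3 in WT and 125 in *Alkbh1*-/- mESCs. Its WT mean lay under the 25th percentile of all probe sets, so no fold is given for it. *Stag3*, another subunit of meiotic cohesin, went from 167 in WT to 374 in *Alkbh1*-/- mESCs (2.25-fold). These cohesin genes were thus both higher in *Alkbh1*-/- mESCs, and *Rec8*, also of meiotic cohesin, has no mean per genotype here. *Smc1b* and *Stag3* had an E2F motif in the promoter window and *Rec8* had none. The motif stood in 5 of the 12 higher germline genes with a window and in 3 of the 4 lower ones.

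Genes of the HORMA-domain proteins that coat unsynapsed chromosome axes were higher in *Alkbh1*-/- mESCs too. *Hormad1* had a mean intensity of 93.2 in WT and 376 in *Alkbh1*-/- mESCs, a 4.04-fold difference. *Hormad2* had 28.9 and 69.5 (2.41-fold) and is dim. Its WT mean, 4.85 on the log2 scale, lay barely above the 25th percentile of all probe sets (4.80). *Syce1*, of the central element, had 107 in WT and 243 in *Alkbh1*-/- mESCs (2.27-fold). Other components of the synaptonemal complex, *Syce2*, *Sycp1* and *Sycp3*, have no mean per genotype here, so the complex as a whole is not described.

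*Dmc1*, the meiotic recombinase, was measured by 2 probe sets. The brighter one had a mean intensity of 159 in WT and 288 in *Alkbh1*-/- mESCs (1.81-fold), and the other had 151 and 264, so that both gave nearly the same difference, 0.86 and 0.80 on the log2 scale. *Slc25a31*, the ADP/ATP carrier of male germ cells, had 14.1 in WT and 23.6 in *Alkbh1*-/- mESCs, and *Msh4* had 10.4 and 16.3. All 4 of these means lay under the 25th percentile of all probe sets and below the 25.7 that *Alkbh1* itself gave in *Alkbh1*-/- mESCs, so no fold is given for either gene.

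On the other side, 2 meiotic genes were lower in *Alkbh1*-/- mESCs. *Mei4*, a partner of the break-forming machinery, had a mean intensity of 73.5 in WT and 41.7 in *Alkbh1*-/- mESCs, a 1.76-fold difference, and is dim. *Meioc*, which regulates transcripts as germ cells proceed through prophase, had 101 in WT and 64.9 in *Alkbh1*-/- mESCs (1.56-fold). Neither had an E-box in its promoter window, and *Meioc* had an E2F motif.

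The piRNA and germ granule genes were split, with 3 of 5 higher and 2 lower in *Alkbh1*-/- mESCs, against 47.5% of all listed genes higher. *Piwil2*, a PIWI protein that binds piRNAs in fetal and adult germ cells, had a mean intensity of 242 in WT and 407 in *Alkbh1*-/- mESCs (1.68-fold). *Mael*, a germ granule protein required for transposon silencing, had 98.3 and 185 (1.89-fold). *Piwil1*, the PIWI protein of later spermatogenesis, had 14.3 and 21.3, both under the 25th percentile of all probe sets and with a difference under 1.5-fold.

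*Tdrd5* and *Ddx4* went the other way. *Tdrd5*, a Tudor protein of germ granules, had a mean intensity of 87.0 in WT and 26.2 in *Alkbh1*-/- mESCs, the latter under the 25th percentile of all probe sets, so no fold is given. *Ddx4*, the Vasa helicase, had 485 in WT and 297 in *Alkbh1*-/- mESCs (1.63-fold lower). *Ddx4* carried the same motifs in its promoter as *Hormad1*, with a difference of opposite sign.

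Of the germ cell determinants, *Dazl* was higher and *Dmrt1* lower in *Alkbh1*-/- mESCs. *Dazl*, an RNA-binding protein that licenses germ cells for meiosis, had a mean intensity of 53.0 in WT and 136 in *Alkbh1*-/- mESCs (2.57-fold) at its brighter probe set, and 45.4 and 141 at the other. The probe sets of *Dazl* thus gave log2 differences of 1.36 and 1.63. *Dmrt1*, a transcription factor of germ cells and Sertoli cells, had 330 in WT and 105 in *Alkbh1*-/- mESCs, 3.15-fold lower. *Tuba3a*, an alpha-tubulin of the testis, had 383 and 596 (1.56-fold higher) at a probe set whose type is shared with other transcripts, and 262 and 526 at a probe set whose type can cross-hybridize, so its near-identical paralogs are not separated.

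**Figure D4:**
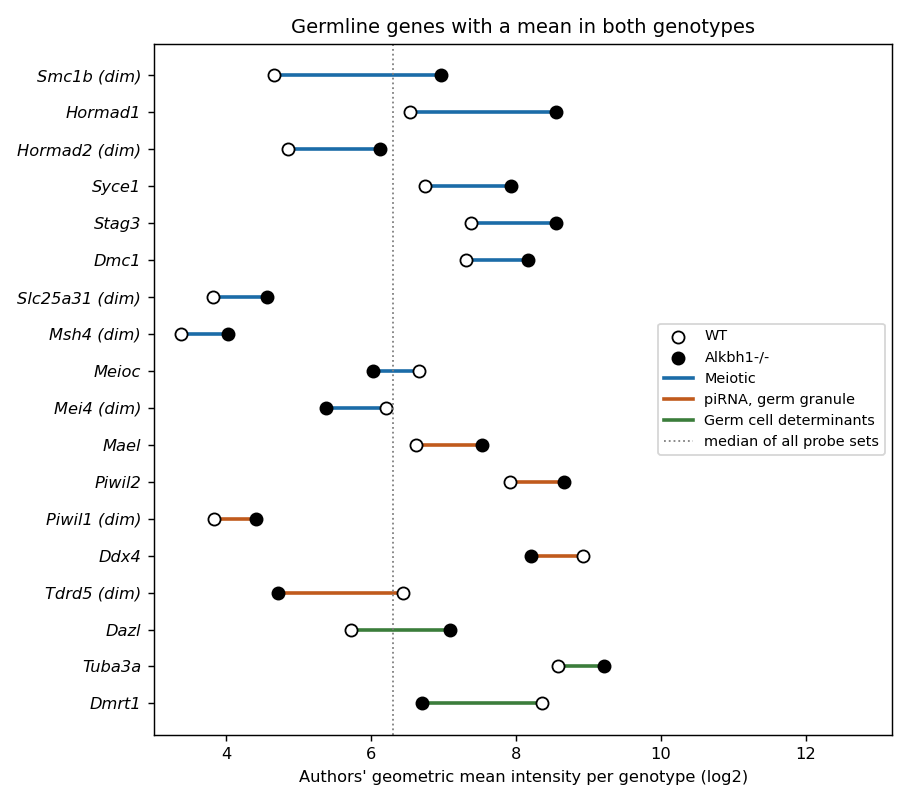
Authors' geometric mean intensity in WT (open) and *Alkbh1*-/- mESCs (filled) on the log2 scale for the 18 germline genes listed with both, coloured by role and marked dim where the mean over all arrays is under the table's median. The filled point lies right of the open one for 13 genes and left of it for *Meioc*, *Mei4*, *Ddx4*, *Tdrd5* and *Dmrt1*; no error can be drawn for means of this kind.

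Further genes of the same pathways were looked up from lists that hold none of the 44. These lists too were chosen with earlier results of these data known. Of 27 further meiotic genes, 17 were measured and 6 had a mean per genotype. Of these 6, 4 were higher in *Alkbh1*-/- mESCs (*Rec114*, *Tex11*, *Terb2* and *Majin*) and 2 lower (*Syce3* and *Mnd1*). Among all listed genes, 47.5% were higher. *Rec114*, which acts with *Mei4* in break formation, was 3.90-fold higher. *Tex11*, a crossover protein, had a mean intensity of 22.6 in WT, under the 25th percentile of all probe sets, and 66.0 in *Alkbh1*-/- mESCs. The WT means of *Terb2* (23.4) and *Majin* (17.2) and the *Alkbh1*-/- mean of *Syce3* (27.4) lay under that percentile too. *Tex11*, *Terb2*, *Majin* and *Syce3* are dim. *Rec114* and *Mei4* thus had differences of opposite sign. Of 13 further piRNA genes, 12 were measured and 6 had a mean per genotype. Of these, 3 were higher (*Gpat2*, *Fkbp6* and *Mybl1*) and 3 lower (*Tdrd12*, *Ddx25* and *Tdrkh*), against the 47.5% of all listed genes higher. *Gpat2*, *Fkbp6*, *Mybl1* and *Tdrkh* are dim. *Gpat2*, a mitochondrial partner of *Piwil2*, was 4.26-fold higher, from a low WT mean of 5.04 on the log2 scale, against a 25th percentile of 4.80. The WT mean of *Mybl1* (17.1) lay under that percentile. Of 17 further germ cell genes, 14 were measured and 7 had a mean per genotype, 5 higher and 2 lower, beside the same 47.5%. Among the 5, *Taf7l* had a WT mean of 25.1, under the 25th percentile, and is dim. The higher ones included *Prdm14* (3.89-fold) and *Kit* (2.47-fold), and the lower ones were *Dppa3* (2.81-fold) and *Lin28a* (1.48-fold).

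Of 18 repressors of germline genes, all were measured, and all lay at or above the median level, against 62.0% of all genes. A mean per genotype was available for 4, against 14.9% of all genes, and 3 of these were lower and 1 higher. Among all listed genes, 52.5% were lower and 47.5% higher. The de novo DNA methyltransferase *Dnmt3a* was 3.26-fold lower in *Alkbh1*-/- mESCs, *Dnmt3b* 2.78-fold lower and the histone methyltransferase *Ehmt1* 1.38-fold lower. The X-linked histone demethylase *Kdm5c* was 1.93-fold higher. *Kdm5c*, *Dnmt3a* and *Dnmt3b* have 7, 5 and 3 probe sets, and only the brightest of each is given here. For *E2f6*, *Mga*, *Max*, *L3mbtl2* and *Pcgf6*, which form the complex that binds E-box and E2F motifs, means per genotype were not analysed here. Whether the repressors had a part in the differences of the germline genes was not tested.

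**Figure D5:**
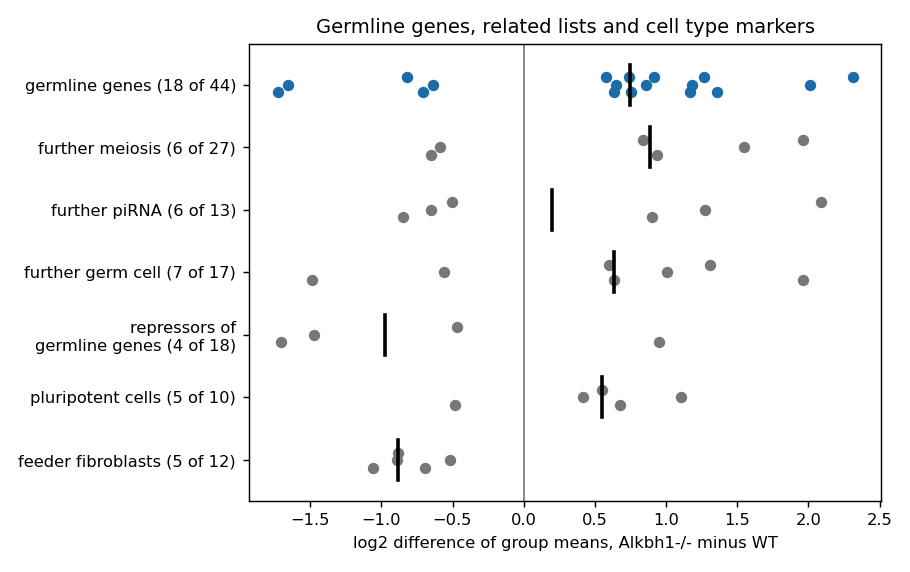
Log2 difference of the group means (horizontal axis, *Alkbh1*-/- minus WT) for the germline genes, the further lists of the same pathways, repressors of germline genes and markers of pluripotent cells and feeder fibroblasts. Each point is a gene, and black bars are medians over the listed genes. The numbers in brackets give how many genes of each list had a mean in both genotypes. All 5 listed feeder markers lie left of 0, beside 52.5% of all listed genes.

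Markers of the cells themselves were set beside these values. *Alkbh1*, the targeted gene, had group means of 9.57 in WT and 4.69 in *Alkbh1*-/- mESCs on the log2 scale, the latter under the 25th percentile of all probe sets. All 10 markers of pluripotent cells lay above the median level, between 10.05 and 14.49, against 62.0% of all genes at or above it. Of these, 5 had a mean per genotype, 4 of them higher in *Alkbh1*-/- mESCs (*Nanog* by 2.15-fold) and *Utf1* lower. Among all listed genes, 47.5% were higher and 52.5% lower. The median log2 difference of the 5 markers was 0.55, in the same direction as the median of the germline genes. The part of this in the germline values was not tested. All 6 markers of gonadal somatic cells were dim, between 3.91 and 5.92, where 62.0% of all genes are not. Of 12 markers of feeder fibroblasts, 11 lay at or above the median level, against the same 62.0%, and 5 had a mean per genotype. All 5 were lower in *Alkbh1*-/- mESCs, by 1.43- to 2.08-fold, beside 52.5% of all listed genes lower. The part of feeder RNA in the lower values of *Ddx4*, *Tdrd5*, *Dmrt1*, *Mei4* and *Meioc* was not tested. The lines also differed in Y-linked transcripts: of 4 looked up, *Eif2s3y*, *Ddx3y* and *Uty* had a mean per genotype, of 751, 412 and 72.5 in WT and of 14.9, 14.1 and 11.2 in *Alkbh1*-/- mESCs, the latter all under the 25th percentile of all probe sets. The part of this difference between the lines in the germline values cannot be told apart from that of the genotype.

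In the promoter windows, the 12 genes that were higher and had a window held the E-box in 5 and the E2F motif in 5, and the 4 that were lower held them in 1 and 3. Among all listed genes with a window, the E-box stood in 12.9% of those higher and in 9.46% of those lower in *Alkbh1*-/- mESCs. The E2F motif stood in 9.79% and 8.18% of them. The germline genes with both values are too few for a comparison of higher with lower ones. The median CpG ratio was 0.67 for the higher germline genes, as for all listed genes that were higher, and 0.89 for the 4 lower ones, against 0.70 for all that were lower.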

How the data were processed

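RNA of 3 WT and 3 *Alkbh1*-/- mESC samples was hybridized to Affymetrix Mouse Genome arrays, and the authors normalized all arrays together with the robust microarray analysis (RMA) algorithm. Deposited log2 values are the authors' means over all arrays for 33142 probe sets, chosen by a filter that is not given in the sources used here. Deposited intensity values are geometric means per genotype, computed by a company for the study, as the authors deposited them, for 4326 entries, those with a nominal p under 0.05 among 7320 probe sets that passed a filter. The WT class is misnamed in that table and was assigned from the description deposited with it. Both tables also hold the authors' own comparison (fold changes, statistics and p-values), which was not used. The number of arrays limits the precision.

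Only 8 paired entries stand beside their own identifier. Entries were therefore paired with probe sets by value: the midpoint of the 2 log2 group means had to match the mean over all arrays of exactly 1 probe set within 1e-06, which held for 4232 entries. Of the 4261 entries with a probe set in reach, 4258 pointed to an identifier that the same table holds elsewhere. The pairing was tested on simulated data. A tolerance of 0.0001 had been planned and is too wide for this key. Probe sets were named through RefSeq (GRCm38.p6) by gene identifier, accession, symbol or older symbol. Where these failed, the symbol that the class comparison writes beside the identifier was used, and 28243 were named in all. Probe sets of the germline set were named by gene identifier or accession. A limma fit was planned for the case of values of single arrays and was not run. A 1.5-fold difference (0.58 on the log2 scale) was used for counts. All 44 members are named, with group means where listed; further genes come from fixed lists. The members and lists were chosen with earlier results of these data known, and the Y-linked list was added later. No fold is given where a group mean lay under the 25th percentile of all probe sets. For a gene with several promoter windows, the first was used. Python 3.11.15, pandas 2.3.3, NumPy 2.4.6 and matplotlib 3.10.9 were used.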

Additional observations from a re-analysis of the deposited data

How the results depend on the processing

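No paired analysis was possible because the deposited tables hold means over arrays and no values of single arrays, and for the same reason no array could be left out. With no replicate spread to measure against, a difference counted as moved when it shifted by over 0.58 on the log2 scale and a count when it changed by over 1.5 times. Centring on the median difference of all entries (0.42), which is unstable because entries with small differences are not listed, left 6 genes over 1.5-fold higher in place of 12. The planned tolerance of 0.0001 left 8 genes with a single match, 7 higher and 1 lower, all beyond 1.5-fold (7 and 1). With dim set at the 75th percentile of all probe sets, 7 genes were at or above the limit. The other 48 summary values changed by less, as did 125 values of single genes. Little of that is a check of stability: the centring shift is under the 0.58 that counts as moved, and most genes have 1 listed probe set, so that another choice of probe set returns the same value. A pairing limited to identifiers of the class comparison and the limit at the 25th percentile were chosen after seeing the data.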

Other observations

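A probe set that the deposited symbol column names *Sycp3* (mean 4.98 on the log2 scale) carries the gene identifier of *Chpt1*, and it was left out of *Sycp3*.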
